A study of Mus musculus with 21 samples.

Results

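The guanylate-binding proteins described here are the 9 genes Gbp2, Gbp3, Gbp4, Gbp5, Gbp6, Gbp7, Gbp8, Gbp9 and Gbp10, taken by symbol from the 48474 genes of a bulk RNAseq count table. They were chosen by their difference between TG and WT mice in these same counts, so the genotype values below are a description and carry no test. Neocortex was sequenced from 21 mice, 10 of them rNLS8 mice (TG) and 11 of them monogenic control littermates (WT). In rNLS8 mice the neurofilament heavy chain promoter drives the tetracycline transactivator mainly in neurons, and without doxycycline this transactivator switches on a human TDP-43 that lacks its nuclear localization signal. All mice, WT included, had received 350 µg of a non-targeting antisense oligonucleotide (ASO) in 10 µL into a cerebral ventricle at 17 to 19 weeks of age, and no mouse without ASO was analysed here. Doxycycline chow (200 mg/kg) was withdrawn 2 weeks after the injection, and tissue was taken after 3 weeks without it. The labels place 4 WT and 3 TG mice in batch A and 7 WT and 7 TG mice in batch B. Total counts were between 20700912 and 22263809 per mouse, with medians of 21076278 in WT and 21451125 in TG.

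Guanylate-binding proteins are large GTPases of the dynamin superfamily that are best known as interferon-induced effectors of cell-autonomous immunity. Type I and type II interferons induce them through transcription factors, IRF1 and IRF9 among them, that act at sites such as the interferon-stimulated response element. The proteins assemble on pathogen vacuoles and bacterial surfaces and promote inflammasome activation, and Gbp2 and Gbp5 carry a prenyl lipid anchor at their carboxyl end. In the brain, microglia, endothelial cells and astrocytes can express them in response to interferon.

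The 9 genes lie in 2 clusters. Gbp5, Gbp7, Gbp3 and Gbp2 lie on the plus strand of chromosome 3 between 142493978 and 142638008 (GRCm38, GENCODE M21), and Gbp8, Gbp9, Gbp4, Gbp10 and Gbp6 on the minus strand of chromosome 5 between 105014150 and 105293698. All 9 are annotated as protein coding. RefSeq promoters (GRCm38.p6, plus strand, from 250 bases before to 50 bases after the RefSeq start) were found for 4 of the 9 genes, all on chromosome 3. They are shown because these genes were all higher in TG and because the core of the interferon-stimulated response element, searched as TTTCNNTTTC on both strands, was present in each. Matches are in capitals, and a second Gbp3 promoter held none. The RefSeq starts are not those of the GENCODE models.
Gbp2, chr3:142620413-142620712: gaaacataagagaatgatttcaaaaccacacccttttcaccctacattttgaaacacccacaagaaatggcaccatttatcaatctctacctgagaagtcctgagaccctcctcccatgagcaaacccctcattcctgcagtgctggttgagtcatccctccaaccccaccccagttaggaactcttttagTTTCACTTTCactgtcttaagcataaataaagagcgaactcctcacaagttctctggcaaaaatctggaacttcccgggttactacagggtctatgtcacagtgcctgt
Gbp3, chr3:142559794-142560093: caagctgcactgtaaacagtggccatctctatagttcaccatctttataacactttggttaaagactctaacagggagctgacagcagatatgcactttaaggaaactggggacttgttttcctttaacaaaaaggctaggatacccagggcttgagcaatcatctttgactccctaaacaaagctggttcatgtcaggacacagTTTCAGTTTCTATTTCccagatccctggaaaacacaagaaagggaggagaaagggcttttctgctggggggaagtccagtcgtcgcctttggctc
Gbp5, chr3:142496684-142496983: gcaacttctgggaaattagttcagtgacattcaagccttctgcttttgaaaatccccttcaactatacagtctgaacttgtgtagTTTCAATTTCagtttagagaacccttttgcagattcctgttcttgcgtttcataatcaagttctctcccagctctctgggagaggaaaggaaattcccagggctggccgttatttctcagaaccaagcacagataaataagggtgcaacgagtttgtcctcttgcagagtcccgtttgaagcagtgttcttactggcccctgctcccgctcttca
Gbp7, chr3:142530086-142530385: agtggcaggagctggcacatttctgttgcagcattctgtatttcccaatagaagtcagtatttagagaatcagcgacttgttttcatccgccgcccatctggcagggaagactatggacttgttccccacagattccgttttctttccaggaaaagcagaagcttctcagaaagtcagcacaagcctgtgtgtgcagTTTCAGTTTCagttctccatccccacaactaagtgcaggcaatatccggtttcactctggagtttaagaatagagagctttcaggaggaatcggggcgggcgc

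The match began 59 bases before the start in Gbp2, 53 in Gbp7 and 165 in Gbp5. In Gbp3 a pair of overlapping matches began 45 and 39 bases before the start. Of all 32851 RefSeq promoters of the same length, 3.44% held this motif. The motif TTCNNNGAA, known as the gamma-activated sequence, was found in the promoters of Gbp5 and Gbp7, 2 matches each, and in 8.30% of all promoters. It was not found in the windows of Gbp2 and Gbp3.

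Each of the 8 chosen guanylate-binding protein genes that could be tested was higher in TG than in WT neocortex, with fold changes from 1.70 for Gbp4 to 8.32 for Gbp10. Expression is given as normalized count, which is the count divided by the effective library size from edgeR's TMM normalization of the mouse and multiplied by the mean of these sizes. Summed over the 9 genes, normalized counts were between 515 and 714 with a median of 597 in WT, and between 1081 and 3373 with a median of 1803 in TG, so the groups did not overlap. In bulk tissue, fewer cells of a type and less RNA per cell cannot be told apart, and likewise more of either.

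The widest differences were found in Gbp10 and Gbp6, neighbours on chromosome 5. Gbp10 was between 10.4 and 26.7 with a median of 18.1 in the 11 WT mice, and between 51.9 and 302 with a median of 139 in the 10 TG mice. This is a log2 fold change of 3.06 ± 0.211 (SE). Every TG mouse was above every WT mouse. Gbp6 was between 41.2 and 78.1 with a median of 56.8 in WT, and between 205 and 860 with a median of 397 in TG. Its log2 fold change was 2.93 ± 0.162 or 7.62-fold, and here too the groups did not overlap.

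Reads of Gbp6 and Gbp10 are hard to assign, since 44.2% of all 100-base windows of the Gbp6 transcript also occur in Gbp10 and 56.1% of the Gbp10 windows in Gbp6. The separate values of these 2 genes are therefore uncertain. Their sum does not depend on how reads were split between them, but it would lack reads matching both genes if such reads were dropped. GENCODE also annotates Gm43302, with which Gbp6 shares 82.9% and Gbp10 70.0% of the windows, and which has no values in the table. How reads were assigned to it is not known, and it could affect the sum as well. The sum was between 55.7 and 105 with a median of 70.7 in WT, and between 257 and 1162 with a median of 536 in TG. Its log2 fold change was 2.96 ± 0.165, which lies between those of the single genes. The ratio of Gbp6 to Gbp10 was between 2.28 and 4.80 in WT and between 2.56 and 3.94 in TG, so the groups overlapped. The other 7 genes shared at most 3.81% of their windows with the other genes of the table, the maximum being Gbp8, and Gbp7 shared 9.76% with Gm43802, which is not in the table.

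Among the genes of the chromosome 3 cluster, which takes part in caspase-11 responses to bacterial lipopolysaccharide, Gbp3 differed most. It was between 80.3 and 151 with a median of 97.4 in WT, and between 231 and 791 with a median of 424 in TG, a log2 fold change of 2.12 ± 0.142 or 4.35-fold. No TG mouse reached down to the WT range. Gbp7, which has been linked to the NADPH oxidase and autophagy machinery in macrophages, was between 91.9 and 148 with a median of 115 in WT. In TG it was between 207 and 490 with a median of 260, a log2 fold change of 1.23 ± 0.117 with no overlap between the groups.

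Gbp2 and Gbp5, the prenylated members, differed less. Gbp2, which is targeted to vacuoles of intracellular pathogens, was between 64.7 and 101 with a median of 79.8 in WT and between 104 and 276 with a median of 188 in TG. The log2 fold change was 1.22 ± 0.103, and the lowest TG mouse lay just above the highest WT mouse. Gbp5, which promotes NLRP3 inflammasome assembly, was between 48.9 and 83.2 with a median of 66.8 in WT and between 82.3 and 202 with a median of 128 in TG, a log2 fold change of 0.97 ± 0.120. Only 1 of the 10 TG mice fell within the WT range.

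The smallest differences were on chromosome 5. Gbp9 was between 76.2 and 141 with a median of 113 in WT and between 136 and 321 with a median of 189 in TG, a log2 fold change of 0.83 ± 0.121. Gbp4 was between 27.4 and 64.7 with a median of 43.3 in WT and between 50.9 and 121 with a median of 71.7 in TG, a log2 fold change of 0.77 ± 0.151. Of the 10 TG mice, 9 were above every WT mouse for Gbp9 and 8 for Gbp4. Gbp8 had only 91 reads in all 21 mice and did not pass the filter on low counts. Its normalized counts were between 1.04 and 7.19 in WT and between 1.91 and 9.45 in TG, and only 1 TG mouse was above every WT mouse.

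**Figure D1:**
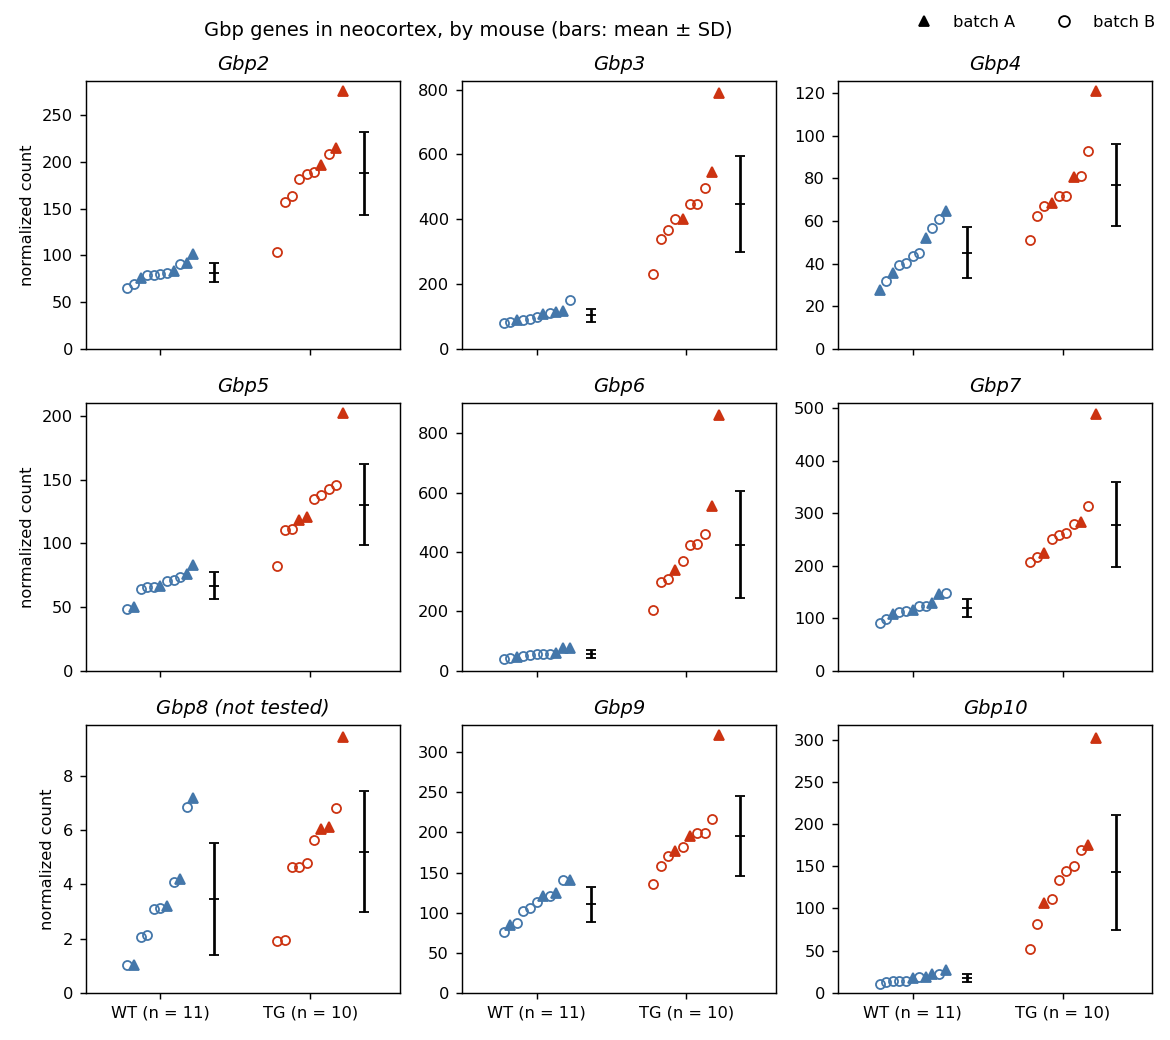
Normalized counts of the 9 guanylate-binding protein genes by mouse (triangles, batch A; circles, batch B), sorted within 11 WT and 10 TG mice, with mean ± SD as bars and a separate vertical axis for each gene. The groups do not overlap for Gbp2, Gbp3, Gbp6, Gbp7 and Gbp10, and Gbp8 stays below 10 normalized counts in every mouse.

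In edgeR's quasi-likelihood test with batch as covariate, 8 of the 9 genes were tested, and all 8 were called higher in TG at an adjusted p under 0.05. In the same fit 23% of the 18248 tested genes were called higher and 21.7% lower, 44.7% in all. The groups did not overlap, with every TG mouse above every WT mouse, for 5 of the 9 genes, compared with 3.85% of all genes tested. The median log2 fold change was 1.22 over the 8 tested members and -0.000675 over all genes. Since the genes were chosen for this contrast, nothing follows from these counts. On the WT libraries alone 7 of the 9 genes would have passed the filter, so that 1 of the 8, Gbp10, entered through its level in TG.

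The symbols Gbp11 and Gbp2b are the other family members in the table. Gbp11, annotated as a polymorphic pseudogene at the end of the chromosome 5 cluster (105323042 to 105346472), was between 4.17 and 19.6 in WT and between 4.08 and 20.6 in TG. It was not among the genes chosen, and its log2 fold change of 0.11 ± 0.259 did not pass the test (edgeR, adjusted p = 0.762). Gbp2b, which lies between Gbp3 and Gbp2 on chromosome 3, had 1 read in all 21 mice. Its RefSeq promoter also holds the element core, 137 bases before the start.

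All 8 tested members were higher in TG within each batch. In batch A the log2 fold change was smallest for Gbp9 and reached 3.20 for Gbp10, and 7 of the 8 genes were called, against 6.99% of all genes called higher. Gbp4 was not called there, with 27.4 to 64.7 in the 4 WT mice and 68.6 to 121 in the 3 TG mice. These ranges did not overlap. In batch B the log2 fold changes were between 0.64 for Gbp4 and 2.97 for Gbp10, and all 8 genes were called, against 19.3% of all genes called higher.

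Whether the genotype difference itself depends on batch was not used to choose the genes and was tested as an interaction. None of the 8 members was called, and neither was any of the 18248 genes, which is 0%. At an unadjusted p under 0.05 there were 1030 genes and 0 of the 8 members, and DESeq2 also called 0 members. The log2 fold change in batch A minus that in batch B was between 0.18 ± 0.256 for Gbp5 and 0.49 ± 0.288 for Gbp3 (edgeR, adjusted p between 0.877 and 0.970), and was positive for all 8. This sign rests on 1 TG mouse of batch A, T60303 (TG replicate 8). Without it the difference was between -0.27 for Gbp10 and 0.20 for Gbp3, and negative for 5 of the 8. Gbp10, which passes the filter on low counts only through its level in TG, sets this lower end. Among the other 7 genes the lowest difference was -0.12 for Gbp5, and 4 were negative.

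In WT mice alone the members did not differ detectably between batches. The log2 difference of batch B minus batch A was between -0.50 ± 0.373 for Gbp10 and 0.01 ± 0.226 for Gbp4. edgeR called 0 of the 8 members, with 0 at an unadjusted p under 0.05, against 6.49% of all genes called. DESeq2 also called 0 members. Gbp10 does not pass the filter on low counts in WT alone and was in this comparison only through its level in TG. Without it, the lowest difference was -0.36 ± 0.260 for Gbp6.

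**Figure D2:**
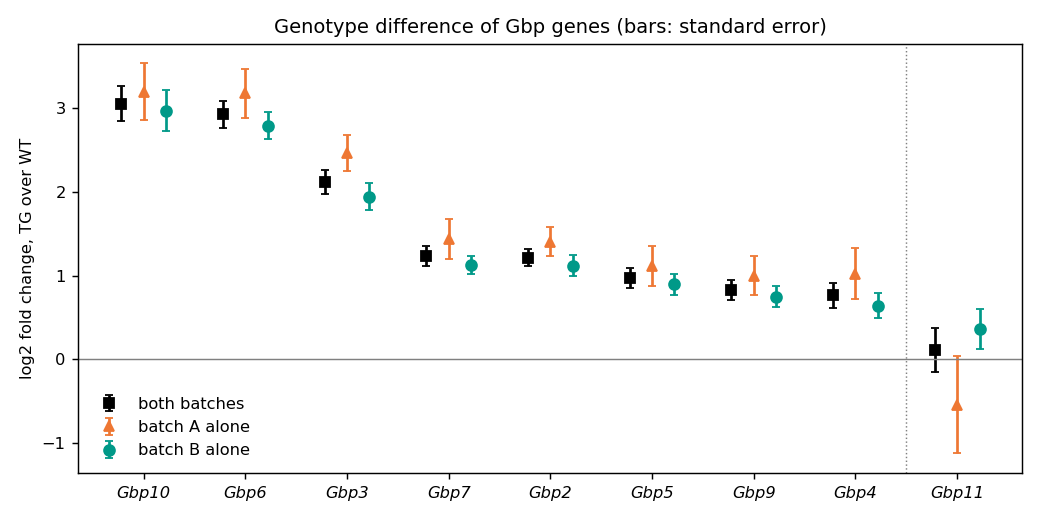
Log2 fold changes of TG over WT with standard errors for the 8 tested members and, right of the dotted line, Gbp11, for all 21 mice with batch as covariate (squares), batch A alone (triangles) and batch B alone (circles). All 8 members lie above 0 in both batches, from 0.64 to 3.20, whereas Gbp11 is -0.54 in batch A and 0.36 in batch B.

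Levels of different genes were compared per kb of transcript, as CPM (counts scaled to the effective library size) divided by the length of the GENCODE transcript. In WT neocortex Gbp3 was the most abundant member with 1.79 ± 0.353 CPM per kb (mean ± SD, n = 11), followed by Gbp2 with 1.51 ± 0.192 and Gbp9 with 1.18 ± 0.231. Gbp5, Gbp6 and Gbp7 lay close together at 1.02 ± 0.156, 1.01 ± 0.220 and 0.992 ± 0.144. Gbp4 with 0.466 ± 0.125, Gbp10 with 0.231 ± 0.0642 and Gbp8 with 0.0658 ± 0.0390 were lowest. Neighbours in this order were compared within each WT mouse by a 2-sided exact sign-flip permutation test with adjustment over the 8 pairs. Gbp9 and Gbp5 did not differ beyond their spread (adjusted p = 0.111, exact permutation), nor did Gbp5 and Gbp6 or Gbp6 and Gbp7 (both adjusted p = 0.829, exact permutation). The other 5 pairs differed, with adjusted p between 0.00260 for the steps from Gbp7 to Gbp8 and 0.0453 for Gbp3 over Gbp2 (exact permutation). Gbp3 was above Gbp2 in 9 of 11 mice, Gbp2 above Gbp9 in 10 of 11, and each of the 3 lowest steps held in all 11. Gbp10 and Gbp8 do not pass the filter on low counts in WT alone. The places of Gbp6 and Gbp10, and the steps next to them, also depend on how shared reads were assigned. The order depends on which length is used. Divided by coding length, Gbp7 came first, followed by Gbp9, Gbp3 and Gbp2, and Gbp4, Gbp10 and Gbp8 were again lowest. In that order Gbp7 and Gbp9 (adjusted p = 0.270) and Gbp9 and Gbp3 (adjusted p = 0.186) did not differ beyond their spread (exact permutation).

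In TG the order of the levels per kb follows from the fold changes given above and is a description only. Gbp3 was again first with 7.79 ± 2.60 CPM per kb (n = 10), but Gbp6 with 7.63 ± 3.26 came next, ahead of Gbp2 with 3.49 ± 0.823. Of the summed level per kb, Gbp6 held 12.2% ± 2.23 (SD) in WT and 26.5% ± 2.76 in TG, and Gbp10 held 2.81% ± 0.771 and 6.46% ± 1.14. The share of Gbp9 was 14.2% ± 1.87 in WT and 7.61% ± 0.927 in TG. Shares add up to a fixed total, so that of Gbp9 was smaller although its level was higher in TG.

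**Figure D3:**
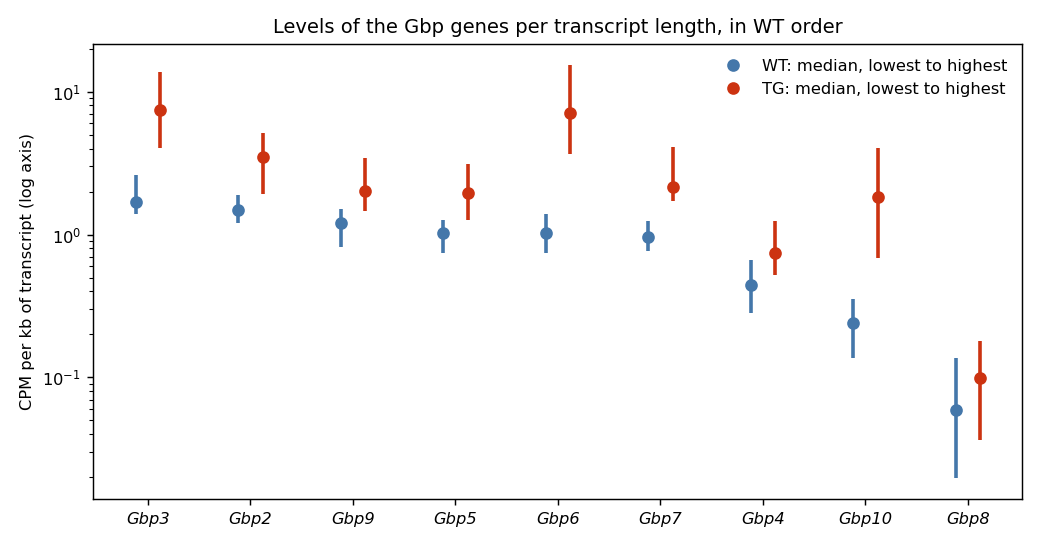
Level of each member in CPM per kb of transcript (log axis), as median with lowest and highest mouse in WT (blue, n = 11) and TG (red, n = 10), ordered by the WT level. Gbp6 stands at the fifth place in WT and at the second in TG, and Gbp8 is lowest in both.

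The members varied together among TG mice. T60303 was the highest TG mouse for all 8 tested members, on average 0.84 above the TG mean in log2 CPM (prior count 2). T_70267, a batch B mouse (TG replicate 1), was lowest for 7 of the 8, on average 0.73 below the mean (-0.73), and T_70252, also of batch B, was lowest for Gbp7. T60303 also had the highest summed normalized count of the 8 microglia markers among TG mice, 12219, and the lowest summed neuron markers, 105930. T_70267 had the lowest microglia sum among TG mice, 8295, whereas T_70252, with the second lowest mean of the members, had the third highest, 10014. T_70267 also had the highest oligodendrocyte sum, 159154, and the lowest endothelial sum, 4597, among TG mice. It was also lowest in the border macrophage and monocyte sum and highest in the T cell and NK cell sum. T60303 was highest in the astrocyte sum and lowest in the T cell and NK cell and neocortical neuron sums. The T cell and NK cell sum came mostly from Cd4 and Trbc2, with 158 and 177 in T_70267 and 21.7 and 127 in T60303. Its other markers were too low to be tested, so it gives no measure of these cells. The part of cell composition in the levels of these mice was not tested.

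**Figure D4:**
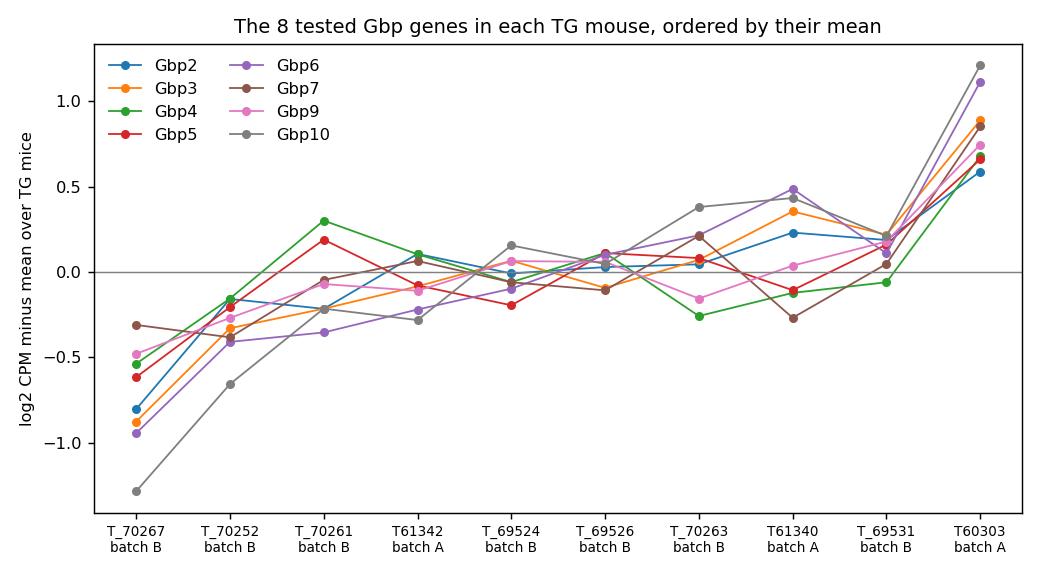
Deviation of each tested member from its mean over the 10 TG mice in log2 CPM, with mice ordered by the mean over the 8 genes and lines joining the values of a gene. All 8 genes are highest in T60303, where they lie 0.59 to 1.21 above their means, and 7 of the 8 are lowest in T_70267.

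For each member, the correlation with the mean log2 CPM of the other 7 tested members was calculated over the 10 TG mice and is given as a description, without p. Pearson's r was highest for Gbp3 with 0.97, Gbp10 with 0.95, Gbp6 with 0.95, Gbp9 with 0.94 and Gbp2 with 0.93. Spearman's rho for these 5 genes was between 0.76 for Gbp9 and 0.95 for Gbp6. Gbp5 had an r of 0.90, Gbp7 0.81 and Gbp4 0.77, with rho of 0.59, 0.56 and 0.33. Without the 2 mice farthest from the median, r remained between 0.70 and 0.87 for the first 5 genes but was 0.34 for Gbp5, 0.37 for Gbp7 and -0.25 for Gbp4. The relation of these 3 genes therefore rests on those mice. Over the 7 TG mice of batch B alone r was between 0.87 and 0.96, except for Gbp7 with 0.75 and Gbp4 with 0.57. Batch A holds only 3 TG mice and gives no value. Over the 11 WT mice r was lower, between 0.12 for Gbp10 and 0.53 for Gbp6, and whether it differs from that in TG was not tested. Gbp10 does not pass the filter on low counts in WT alone, but it sets this lower end and enters the mean for the other genes. The next lowest r in WT was 0.14 for Gbp7.

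The genes most like the family over the 10 TG mice, by correlation with the mean of the 8 members, were Ddx58, which encodes the RNA sensor RIG-I (r = 0.98, and 0.96 over the 7 mice of batch B), and Ifit1, an interferon-induced inhibitor of translation (0.98 and 0.98). They were followed by the protease gene Capn3 (0.97 and 0.95), the immunity-related GTPase Irgm1 (0.97 and 0.95) and Cd274, which encodes the checkpoint ligand PD-L1 (0.97 and 0.94). The points share the same libraries as the members.

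The interferon pathway, known to induce guanylate-binding proteins, was described with a list of 18 ligands, receptors, kinases and transcription factors. Of the 15 tested, 9 rose and 1 fell in TG, with a median log2 fold change of 0.31 (edgeR, adjusted p under 0.05 over all genes). Beside this and the following lists stand the 23% of all tested genes that were higher and the 21.7% that were lower, with a median of -0.000675. The transactivator Nlrc5 rose by 2.01 ± 0.212 (log2, SE; adjusted p = 3.96e-08) and Irf9 by 1.84 ± 0.112 (adjusted p = 5.33e-12), each above every WT mouse in 10 of 10 TG mice. Nlrc5 was low in WT, between 5.16 and 29.8 normalized counts. The interferon gamma receptor chains also rose, Ifngr2 by 0.78 ± 0.0463 in 10 of 10 mice and Ifngr1 by 0.31 ± 0.0540 in 8 of 10. Irf1 rose by 0.35 ± 0.0954 (adjusted p = 0.00403, 7 of 10 mice), and the kinase Jak1 fell by 0.14 on the log2 scale (adjusted p = 0.0126), a call that was lost without T60303 and T61340 together. The ligands themselves were hardly measured, with 2 reads of Ifng and 1 read of Ifnb1 over all 21 mice. Both reads of Ifng and the read of Ifnb1 came from TG mice. Whether this pathway acted on the guanylate-binding protein genes here was not tested.

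Over the 10 TG mice the correlation of the 15 tested regulators with the family mean was between -0.52 for Jak2 and 0.96 for Irf9. Irf9 (rho = 0.90) and Nlrc5 (r = 0.93, rho = 0.55) were at the upper end, whereas r was 0.23 for Ifngr1 and -0.49 for Jak1. Several of these values, at both ends, rest on a few mice. Without the 2 farthest mice r was 0.77 for Irf9, 0.58 for Nlrc5, 0.31 for Ifngr2, 0.41 for Ifngr1, -0.06 for Jak1 and -0.00178 for Jak2. For Ifngr2 r over all 10 mice was 0.50 with a rho of 0.60. The steepest loss was in Irf8, chosen here after its values were seen, with 0.85 over all 10 mice and -0.14 without those 2, and for Stat2 r went from 0.85 to 0.56. In batch B alone r was 0.97 for Irf9, 0.90 for Nlrc5, 0.76 for Ifngr2 and 0.72 for Ifngr1, and Jak1 turned to 0.44. Tyk2 went from 0.12 over all 10 mice to -0.83 in batch B. For Irf2 r was 0.25 over all 10 mice and 0.75 without the 2 farthest.

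The immunity-related GTPases, which act on pathogen vacuoles together with guanylate-binding proteins, rose as well. Of 9 tested genes 8 rose, against 23% of all genes, with a median of 1.17 over the list, and Irgq fell by 0.27 on the log2 scale. Gm4951 rose by 2.19 ± 0.235, Iigp1 by 1.80 ± 0.121, Igtp by 1.33 ± 0.133 and Irgm1 by 1.31 ± 0.129. Gm4951 was low in WT, between 3.13 and 14.9 normalized counts. Of 6 relatives in the dynamin superfamily, the antiviral GTPases Mx1 and Mx2 rose by 3.23 ± 0.309 and 2.65 ± 0.234, while Rnf112 fell by 0.30 and the atlastin Atl1 by 0.14 on the log2 scale. These 2 higher and 2 lower of 6 genes are near the shares of all genes, 23% and 21.7%. The call of Atl1 was lost without T60303. In WT Mx1 was between 1.04 and 9.28 normalized counts and Mx2 between 4.17 and 15.7. Mx1 stayed below the filter's minimum count of 10 in every WT mouse and was tested only through its level in TG.

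Among inflammasome genes, downstream of guanylate-binding proteins in infected cells, 5 of 8 tested rose and 1 fell, against 23% and 21.7% of all genes. The nucleic acid sensor Zbp1 rose by 3.49 ± 0.299 in 10 of 10 mice. In WT Zbp1 was between 0 and 8.23 normalized counts, below the filter's minimum count of 10, and it was tested only through its level in TG. Pycard, which encodes the adaptor ASC, Gsdmd, Nlrp3 and Aim2 rose by 0.47, 0.44, 0.43 and 0.39, and Il18 fell by 0.24 on the log2 scale. The count of 5 fell to 3 without T60303, when Nlrp3 and Gsdmd were no longer called, and to 2 when T61340, another batch A TG mouse, was left out as well, which is near the share of all genes. Nlrp3 also lost its call without any one of 3 other mice, and Il18 without any one of 7. Casp4 had 178 reads in all mice and was not tested, with 2.09 to 8.23 normalized counts in WT and 4.90 to 25.5 in TG.

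Of 7 genes for the prenyl anchor that Gbp2 and Gbp5 carry, Pggt1b, a subunit of the enzyme that attaches the longer prenyl group, rose by 0.38 ± 0.0488 and the protease Rce1 by 0.32 ± 0.0519, and Fdps, which makes farnesyl diphosphate, fell by 0.47 on the log2 scale. Of 8 autophagy genes for Atg8 proteins and their conjugation, which are required for normal targeting of guanylate-binding proteins, 2 rose and 2 fell. Atg3 and Atg7 rose by 0.17 and 0.16, and Atg12 and Atg16l1 fell by 0.16 and 0.13 on the log2 scale. All of these are conjugation genes, and the genes of the Atg8 proteins themselves were not called. In both lists the counts in each direction are near the shares of all genes, 23% and 21.7%, and say nothing particular of these genes. Atg7 and Atg16l1 each lost their call without any of several mice, T60303 among them.

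Markers of the cell types that the tissue holds were read from the same fit, in which 23% of all genes were higher and 21.7% lower. Of 8 microglia markers 5 were higher and 1, P2ry12, was lower in TG, and their summed normalized count was between 7857 and 9125 in WT and between 8295 and 12219 in TG. Without T60303 and T61340, 2 microglia markers were called higher and 1 lower, and the median log2 fold change of the 8 markers was 0.12, compared with 0.16 in all mice. The shares of all genes without these 2 mice are not given here. Of 6 border macrophage and monocyte markers tested none was called, with sums from 149 to 292 in WT and from 188 to 357 in TG, but 1 was called higher without any one of 6 mice. Of 10 T cell and NK cell markers only 2 were tested, of which 1 was lower and none higher, and Cd3e, Cd3d, Cd3g, Cd8a, Nkg7, Ncr1, Gzmb and Prf1 were too low to be tested. Of 8 endothelial markers 1 was higher and 1 lower, below the shares of all genes. Of 7 astrocyte markers Gfap was higher, by 1.03 ± 0.110, and 5 were lower. Of 8 neuron markers 5 were lower and none higher, with sums of 138325 to 169656 in WT and 105930 to 132246 in TG, and none of 7 oligodendrocyte markers was called. The call of the neuron marker Gad2 was lost without any one of 11 mice. All 8 markers of neocortical projection neurons passed the filter, with 1 higher and 3 lower in TG. The part of any cell type in the levels of the guanylate-binding protein genes was not tested.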

How the data were processed

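Bulk RNAseq of neocortex was obtained from 21 mice, each a separate animal. For each gene symbol the authors deposited whole, unnormalized read counts, from paired-end reads on mm10 (GRCm38). The submitters' processing notes name HISAT, HISAT2, Bowtie, Bowtie2 and RSEM without their roles. How reads matching several genes were counted is not given in the sources used here. Counts were analysed in R 4.3.3 with edgeR 4.0.16 (filterByExpr with minimum count 10 and minimum total 15, TMM, quasi-likelihood F test, genotype and batch as terms, Benjamini-Hochberg adjustment over 18248 genes, threshold 0.05), and descriptions were made in Python 3.11.15. The steps were tested on simulated counts. SE values are the log2 fold change divided by the square root of F. Batch is the labels' own term.

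The members and lists were chosen with earlier results of these data known. Correlations with the mean of the members are therefore given without p. Named genes were all members, other Gbp symbols, up to 4 called genes per list and direction with the largest change, Ifng, Ifngr1, Ifngr2 and Irf1, and the 5 genes most correlated with the family. An item that this rule also names is not reported here. Ifnb1, Casp4, Aim2, Irf8, Stat2, Jak2, Tyk2, Irf2 and the cell type markers were named after their values were seen. Alternatives were DESeq2 1.42.0, other scalings and filters, no batch term, each batch alone, a prior count of 0.5, coding length and leaving out each mouse. The sum of Gbp6 and Gbp10 and leaving out T60303 with T61340 were added after seeing the data. Reads carried no molecular identifiers.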

Additional observations from a re-analysis of the deposited data

Results flagged for a closer look

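Dixon's test was applied to the normalized counts of each member in the 10 TG mice (9 groups in all, where chance flags about 1 in 20). In 4 of them T60303, the batch A mouse numbered TG replicate 8, stood apart as the highest value. Its gap to the next mouse, as a share of the range, was 0.474 for Gbp5, 0.624 for Gbp7, 0.568 for Gbp9 and 0.507 for Gbp10, above the critical value of 0.466. The 4 genes come from the same mice and are not independent. Without this mouse the log2 fold changes were 0.87 for Gbp5, 1.11 for Gbp7, 0.73 for Gbp9 and 2.89 for Gbp10. Dixon's test and its chance rate assume normally distributed values, whereas these counts were not log-transformed. On a log scale a gap at the highest value takes a smaller share of the range, and the test was not run there. The flags therefore hold for the unlogged scale only.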

How the results depend on the processing

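All 8 tested members remained higher in TG under every alternative that was run, and were called in all of them except Gbp4 in batch A alone. The median log2 fold change of the members was between 1.13 and 1.27 with any single mouse removed and between 1.12 and 1.42 under the other alternatives. In batch A alone, with 4 WT and 3 TG mice, 2195 genes were called instead of 8154, and 20 instead of 36 of the 53 tested genes of the pathway lists. With any single mouse removed, between 7805 and 8363 genes were called. The correlation of Gbp4 with the other members over TG mice was 0.506 without T60303 and 0.637 without T_70267, and that of Gbp7 was 0.529 without T60303. No paired analysis was possible because the labels give no replicate numbers shared between the groups. Gbp8, with 91 reads in all mice, allows no statement on a difference at this depth, and the separate levels of Gbp6 and Gbp10 depend on how shared reads were assigned.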
